A study of Homo sapiens with 3 samples.

Results

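SNS-seq summits on the unplaced and unlocalised contigs of the human genome, among them the contig that carries a 45S ribosomal RNA unit, were collected from untreated HCT116 cells. The members were all MACS2 summits on sequences whose name starts with GL, which gave 512 of the 443480 summits in the lists of 3 replicates. HCT116 is an established human colorectal cancer line, and the cells were grown in RPMI medium without further treatment. Nascent strands were enriched with lambda exonuclease, which degrades DNA that lacks an RNA primer at its 5′ end, and each library was called on its own. There was 1 group, so the comparisons are between sequences and between replicates, not between conditions.

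Ribosomal DNA lies in long tandem arrays, and each repeat holds a transcribed unit and an intergenic spacer. RNA polymerase I copies the unit into a 45S precursor, which is cut into the 18S, 5.8S and 28S RNAs of the ribosome, and replication of the arrays is known to start mainly in the spacer. Contigs of this kind are pieces of satellite, duplicated or ribosomal sequence that could not be placed in an assembled chromosome, so that reads from many copies in the cell can be piled on a single piece. The number of copies in the cells and the nascent strand signal of each copy cannot be told apart in these lists.

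The contig GL000220.1 is 161802 bases long and carries the 45S gene RNA45SN5 at 105424 to 118780. Within that unit lie the 18S gene RNA18SN5 (109078 to 110946), the 5.8S gene RNA5-8SN5 (112024 to 112180) and the 28S gene RNA28SN5 (113348 to 118417). A stretch of 16282 bases, from 101549 to 117830, recurs on the same contig from 145521, so the contig holds a first unit, the spacer that follows it, and the start of the next repeat 43972 bases on. Coordinates are those of hg19, and sequence was read from the GRCh38 contig of the same accession and version, plus strand.

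Sequences are given for the site upstream of the gene, the site within the unit and the highest contig summit of replicate 2, since these hold some of the highest scores. Each is a window of 200 bases, and capitals mark the bases from the first to the last summit called there. The first lies upstream of the 45S gene and was called in all 3 replicates.

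GL000220.1:104164-104363: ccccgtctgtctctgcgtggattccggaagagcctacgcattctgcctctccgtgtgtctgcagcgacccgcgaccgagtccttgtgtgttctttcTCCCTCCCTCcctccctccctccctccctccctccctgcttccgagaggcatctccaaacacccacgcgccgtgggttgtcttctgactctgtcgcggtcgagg

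The second lies near the 3′ end of the 28S gene, in the only place within the transcribed unit where any summit was called, in replicates 1 and 3.

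GL000220.1:117870-118069: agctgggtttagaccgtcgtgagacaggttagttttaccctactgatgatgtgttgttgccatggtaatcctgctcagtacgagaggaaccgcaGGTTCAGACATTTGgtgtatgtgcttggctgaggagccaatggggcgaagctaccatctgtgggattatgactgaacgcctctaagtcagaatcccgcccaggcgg

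The third holds the highest contig summit of replicate 2, in the spacer just past the end of the unit.

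GL000220.1:119553-119752: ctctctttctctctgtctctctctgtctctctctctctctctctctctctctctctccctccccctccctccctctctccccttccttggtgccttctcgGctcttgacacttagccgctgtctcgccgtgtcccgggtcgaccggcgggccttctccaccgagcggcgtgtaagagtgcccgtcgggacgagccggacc

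The first window holds 9 repeats of CCCT in a row on the plus strand, and the summits of all 3 replicates fell at the start of that run. Pyrimidines made up 67.5% of it, against 47.5% of the second window. The third window, at 74.0% pyrimidine, opens with a CT-rich run that ends before the summit.

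Contig summits numbered 188, 147 and 177 in replicates 1, 2 and 3, while all summits numbered 218227, 63077 and 162176. The contig share was thus 0.0861%, 0.233% and 0.109%, with a mean of 0.143% ± 0.0790 (SD, n = 3). The number on contigs varied far less between replicates than the total did, and the replicate with the fewest calls had the highest share. Without replicate 2 the mean share was 0.0976%. Read depth cannot be had from summit lists, so a site without a summit is a site not called at the depth of that library.

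The summits fell on 30 contigs, of which 22 had a summit in all 3 replicates, 5 in 2 and 3 in 1. The first 5 contigs held 265 summits, or 51.8%, and 16 contigs held under 10 each. The ribosomal contig GL000220.1 led with 31, 23 and 29 summits, 16.2% of all contig summits. It was followed by GL000225.1 with 27, 19 and 16, by GL000195.1 with 17, 10 and 18, by GL000199.1 with 5, 20 and 15, and by GL000219.1 with 14, 9 and 12.

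**Figure D1:**
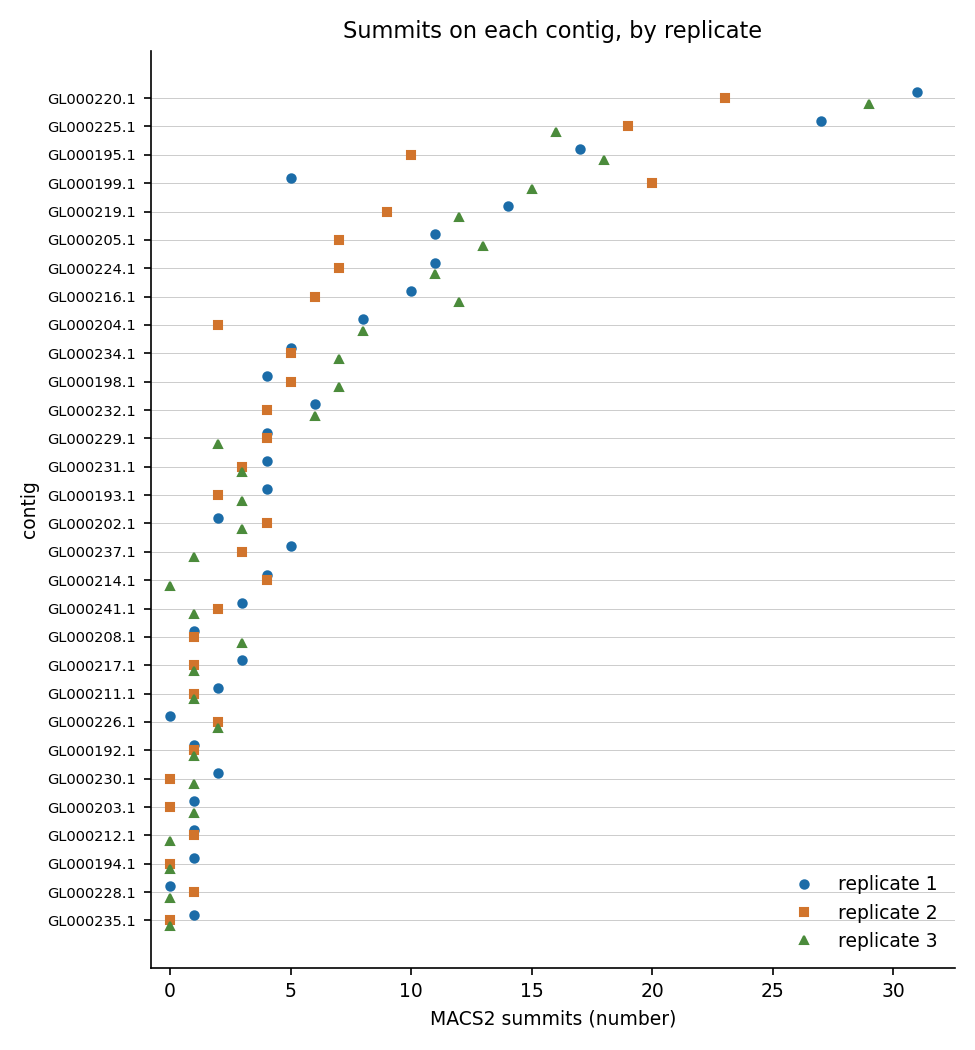
Number of MACS2 summits on each of the 30 contigs (rows, ordered by the total) in replicates 1 (circles), 2 (squares) and 3 (triangles). GL000220.1 lies at 23 to 31 in every replicate, while GL000199.1 lies at 5 in replicate 1 and at 15 and 20 in the others.

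On GL000199.1 replicate 1, with the most calls in all, had the fewest summits. The other contigs among the 10 with the most summits were GL000205.1 (11, 7 and 13), GL000224.1 (11, 7 and 11), GL000216.1 (10, 6 and 12), GL000204.1 (8, 2 and 8) and GL000234.1 (5, 5 and 7). At the other end, GL000194.1, GL000228.1 and GL000235.1 held 1 summit each, in a single replicate.

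Lengths could be used for the 9 contigs that GRCh38 holds under the same accession and version, which carried 272 summits, or 53.1%. Per 100 kb, the ribosomal contig held 19.2, 14.2 and 17.9 summits, where the assembled chromosomes 1 to 22, X and Y together held 7.05, 2.03 and 5.24. GL000225.1 held 9.79 ± 2.69 (SD, n = 3), GL000195.1 held 9.29, 5.47 and 9.84, and GL000219.1 held 7.81, 5.02 and 6.70. All of these contigs, the ribosomal one included, were denser than the chromosomes in every replicate. Density was not high on every contig, since GL000194.1, at 191469 bases, held 0.174 ± 0.302 summits per 100 kb (SD, n = 3).

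The score of a summit is −log10 of the q-value that MACS2 gave its peak, so a higher score is a smaller q. The median score on contigs was 6.97, 5.88 and 5.41 in replicates 1, 2 and 3, against 4.81, 3.39 and 3.92 on the chromosomes. Contig medians were higher in 3 of 3 replicates, by 1.45, 1.73 and 1.38 times (mean 1.52 ± 0.187, SD, n = 3). On the log2 scale the difference was 0.60 ± 0.17 (SD, n = 3), with p = 0.25 in a two-sided exact sign-flip permutation test, the smallest p that 3 replicates can give. Without the ribosomal contig the ratios were 1.29, 1.58 and 1.35.

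Among contig summits, high scores were concentrated on the ribosomal contig. Of all summits, 0.011% in replicate 1, 0.0539% in replicate 2 and 0.016% in replicate 3 had a score of at least 100, which were 24, 34 and 26 summits. Contigs held 10, 8 and 7 of these, and GL000220.1 alone held 10, 8 and 6. The remaining contig summit above 100 was that of replicate 3 on GL000216.1, at 181. Most summits of at least 100 lay off the contigs in each replicate, as did the highest scores, at 5776, 19429 and 13312.

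On GL000220.1 the 83 summits were set out by part of the contig. The flank, from base 1 to 101548, lies before the recurring stretch and held 15, 9 and 19 summits in replicates 1, 2 and 3. The upstream spacer, from there to the 45S start, held 1 in each replicate. The transcribed unit held 1, 0 and 1, and the spacer between the copies, from 118781 to 145520, held 14, 13 and 8. The second copy, to the end of the contig, held 0 in every replicate: the last summit was at 145512 and 16290 bases followed without one.

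**Figure D2:**
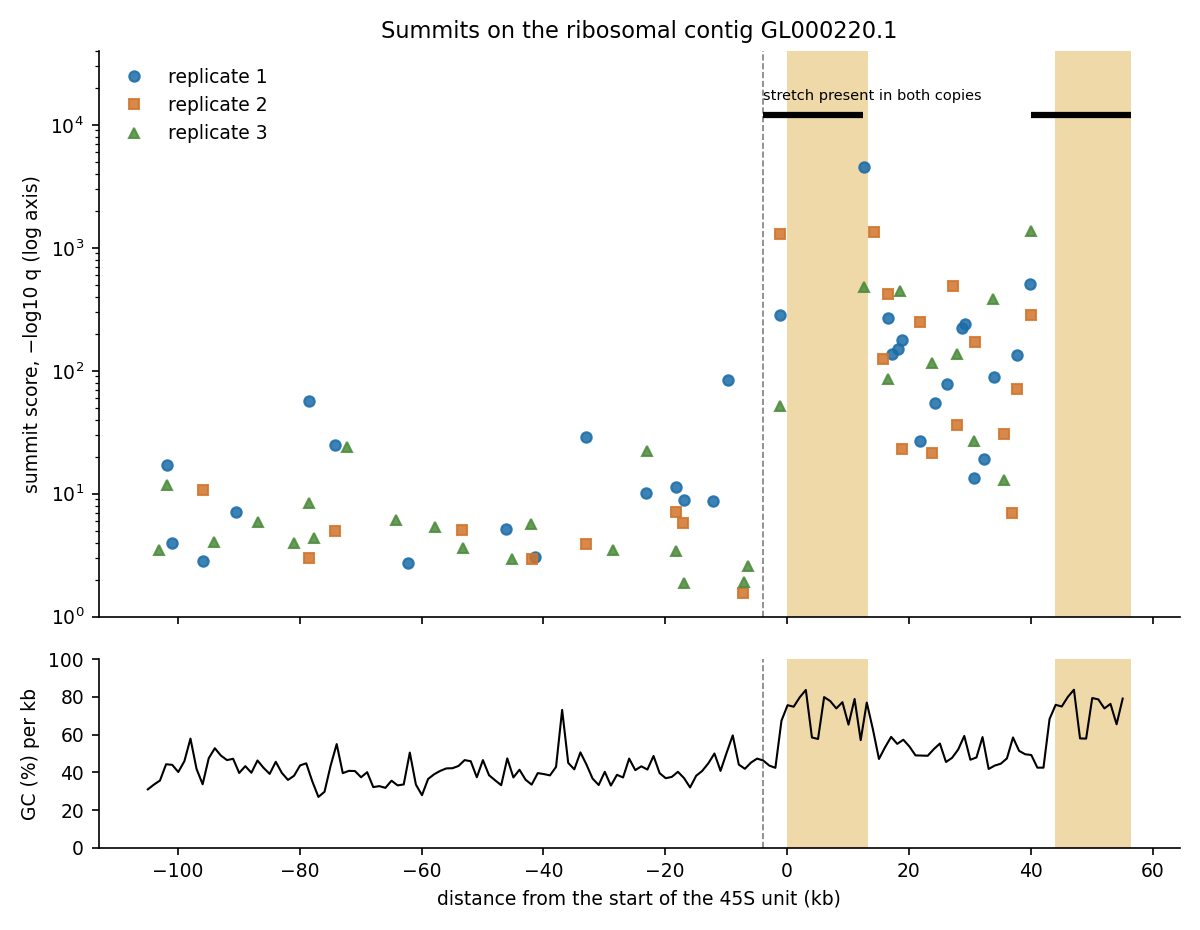
Score of every summit on GL000220.1 (upper panel, −log10 q on a log axis) and GC content per kb (lower panel, %) against distance from the start of the 45S unit in kb, with replicates 1 to 3 as circles, squares and triangles. Shading marks the transcribed unit and its second copy, black bars and the dashed line mark the stretch present in both copies and its start, and the scores step up from the flank to the spacer between the copies, where 35 of the 83 summits lie.

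The transcribed unit held fewer summits per kb than the rest of its contig. Over its 13357 bases it held 1, 0 and 1 summits in replicates 1, 2 and 3, or 0.0749, 0 and 0.0749 per kb. Chromosomes held 7.05, 2.03 and 5.24 per 100 kb, so the unit lay above them in replicates 1 and 3 and below in replicate 2. The rest of the contig, 148445 bases, held 30, 23 and 28 summits, or 0.182 ± 0.0243 per kb (SD, n = 3). It includes the second copy of the unit, which held 0 summits. The unit was lower in 3 of 3 replicates and the ranges did not overlap, with a mean difference of −0.132 ± 0.0210 summits per kb (SD, n = 3, exact sign-flip permutation test, two-sided p = 0.25). The mean density in the unit was 0.274 times that of the rest. This ratio was 0.383 without replicate 2, which had no summit in the unit.

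The lower density of the unit within its contig went with the duplication. The stretch present in both copies, which covers the upstream spacer and all of the unit but its 3′ end, held 3 summits over 32564 bases counted on both copies, all at 104260 to 104269. Both summits in the unit lay 134 and 147 bases past the end of that stretch. How reads that match both copies were placed was not stated in the methods, and its part in the lower density was not tested.

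The 2 summits in the unit were among the highest in their libraries. In replicate 1 the summit at 117964 had a score of 4541, the rank of 3 among all 218227 summits. In replicate 3 the summit at 117977 had a score of 484 and rank 8. They lay 13 bases apart, 453 and 440 bases before the 3′ end of the 28S gene, while replicate 2 had no summit within the unit. The nearest summit of replicate 2 lay 873 bases past the unit, at 119653, with a score of 1342 and rank 4.

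In the spacer between the copies, summit scores were high in every replicate. Summits numbered 0.524, 0.486 and 0.299 per kb there, against 0.148, 0.0886 and 0.187 in the flank, so the spacer was denser in 3 of 3 replicates, by 3.54, 5.49 and 1.60 times. The mean difference was 0.295 ± 0.159 summits per kb (SD, n = 3, exact sign-flip permutation test, two-sided p = 0.25). Replicate 3 showed the smallest difference.

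The median score in the spacer was 135, 125 and 126, close together across replicates, and the highest was 510, 1342 and 1365. In the flank the median was 8.85, 4.99 and 4.02, beside 6.22, 5.35 and 5.29 on the other contigs. The spacer medians were 15.2, 25.1 and 31.4 times those of the flank (log2 difference 4.52 ± 0.53, SD, n = 3, exact sign-flip permutation test, two-sided p = 0.25). The lowest score in the spacer was 13.4, 6.91 and 13.0, so scores in the spacer and the flank overlapped.

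The single score per replicate in the unit exceeded the median of the rest of the contig by 7.35 in replicate 1 and 6.33 in replicate 3 on the log2 scale. Since the rest of the contig is mostly flank, the comparison with the spacer between the copies was smaller, at log2 differences of 5.07 in replicate 1 and 1.94 in replicate 3 (mean 3.51 ± 2.22, SD, n = 2). The size of this difference thus depended on the replicate. With 2 replicates the exact two-sided permutation test cannot go below 0.5, and it gave p = 0.5 for both.

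Agreement between replicates was counted as the share of summits of a replicate that had a summit of another within 100 bases on the same sequence. Over the contigs, 58 of 188 summits of replicate 1, or 30.9%, had one in replicate 2, where the share over all summits of replicate 1 was 10.8%. The reverse share was 39.5% on contigs and 37.3% over all summits of replicate 2. Between replicates 1 and 3 the contig shares were 22.9% and 24.3%, against 7.84% and 10.5% over all summits. Between replicates 2 and 3 they were 27.9% and 23.2%, against 7.42% and 2.89%.

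Contig summits were matched more often than those of the chromosomes in 6 of 6 directed pairs, with a mean of 28.1% ± 6.37 (SD over 6 pairs, which share libraries) against 12.8% ± 12.3. For summits of replicate 2 in replicate 1 the shares were nearly the same. The summits are also denser on several contigs, and density raises such a share. Among summits that had one of the other replicate within 1000 bases, 61.1% on contigs and 58.4% on chromosomes had it within 100 bases for replicate 1 in replicate 2. For replicate 2 in replicate 3 the shares were 51.2% and 28.3%, and for replicate 3 in replicate 1 they were 43.4% and 25.1%. The chromosomes and the contigs thus lay close for replicates 1 and 2, and apart for the pairs with replicate 3.

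**Figure D3:**
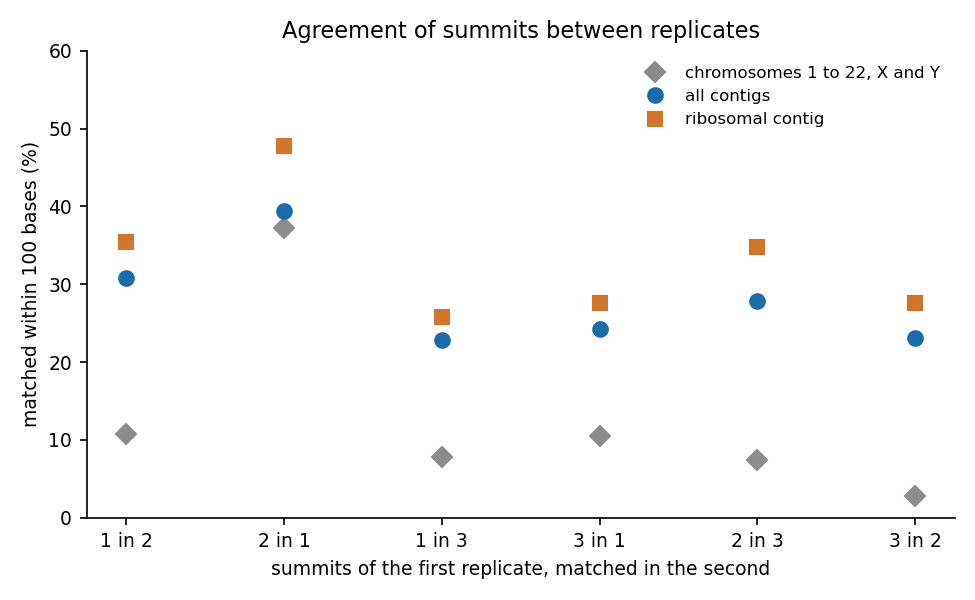
Percent of the summits of the first replicate that have a summit of the second within 100 bases, for the 6 ordered pairs, on chromosomes 1 to 22, X and Y (diamonds), all contigs (circles) and the ribosomal contig GL000220.1 (squares). The contigs lie above the chromosomes in each pair, by least for replicate 2 in replicate 1, at 39.5% and 37.3%.

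The median distance of the matched summits was 17 or 18 bases on contigs and 32 to 45 bases on chromosomes. Joining summits within 100 bases gave 386 groups, of which 19 held all 3 replicates, 88 held 2 and 279 held 1. The 19 groups lay on 11 contigs, with a median span of 42 bases from the first to the last summit. In 6 of them the summits lay within 10 bases of each other. Grouping was not run on the chromosomes, so the counts of groups have no share over all summits beside them. Summits with a match in both other replicates were 18 of 188, 17 of 147 and 16 of 177 on contigs for replicates 1, 2 and 3. On the chromosomes they were 2199 of 218034, 2252 of 62924 and 2096 of 161994.

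On the ribosomal contig the matched share averaged 33.2% ± 8.24 (SD over 6 pairs), from 25.8% for replicate 1 in replicate 3 to 47.8% for replicate 2 in replicate 1. In the spacer, with the upstream spacer counted, it ranged from 3 of 15 summits for replicate 1 in replicate 3 to 6 of 9, or 66.7%, for replicate 3 in replicate 2. In the unit, the summit of replicate 1 was matched in replicate 3 and neither was matched in replicate 2. There were 59 groups, of which 5 held all 3 replicates, 14 held 2 and 40 held 1. Over all contigs 279 of 386 groups held 1 replicate. Of the summits of replicates 1, 2 and 3 on the ribosomal contig, 45.2%, 69.6% and 44.8% had a match in at least 1 other replicate, against 17.6%, 41.1% and 12.1% on the chromosomes. On the other contigs the shares were 43.9%, 53.2% and 37.2%, close to the ribosomal contig in replicate 1.

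The group upstream of the 45S gene was the closest of the 5. Its summits were at 104268, 104260 and 104269 in replicates 1, 2 and 3, or −1156, −1164 and −1155 bases from the 45S start. Scores were 286, 1283 and 51.8, with ranks 11, 6 and 46, so the site was near the top of each library while its score ranged widely. Its 3 windows of 300 bases had a mean GC content of 62.8%.

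The group in the spacer had summits at 121969, 121973 and 121917, at 3189, 3193 and 3137 bases past the end of the unit. Scores were 267, 417 and 86.3, with ranks 12, 12 and 31. The 3 groups in the flank, at 26901 to 27014, 87181 to 87255 and 88387 to 88506, had lower scores. At the first of these the scores were 56.4, 3.00 and 8.43, so replicate 1 stood above the others.

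At the edge of the second copy each replicate had a summit, with those of replicates 2 and 3 within 10 bases of each other and that of replicate 1 more than 100 bases from both. Replicate 1 had a score of 510 at 145365, replicate 2 had 283 at 145512 and replicate 3 had 1365 at 145506, with ranks 8, 15 and 6. They lay 156, 9 and 15 bases before the second copy. The strong summits near the 28S end and at this edge thus lie at the borders of the stretch present in both copies, and whether the borders set these positions was not tested.

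Outside the ribosomal contig, 5 groups that held all 3 replicates are given, those whose scores had the highest mean percentile. On GL000216.1, at 1530 to 1601, scores were 65.9, 85.5 and 181, with replicate 3 highest. On GL000231.1, at 11714 to 11756, they were 44.9, 39.8 and 18.7. On GL000199.1, at 72955 to 72962, they were 16.2, 18.7 and 31.1, within a span of 7 bases. All of these summits were at or above the percentile of 94.8 in their own library.

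On GL000234.1, at 39492 to 39591, scores were 41.4, 20.04 and 7.54, and on GL000198.1, at 84273 to 84281, they were 70.6, 23.1 and 5.63. Replicate 1 was highest and replicate 3 lowest at both. No gene could be assigned to these 5 groups, since GRCh38 does not hold those contigs under the same version in the reference used.

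Sequence composition was taken in windows of 300 bases on the 9 contigs with a shared version, and set against all such windows of the same contigs. Mean GC content at summits was 53.1%, 52.6% and 48.1% in replicates 1, 2 and 3, against 43.2% over all windows. Summits were richer in GC in 3 of 3 replicates, by 8.05 percentage points ± 2.74 (SD, n = 3, exact sign-flip permutation test, two-sided p = 0.25). Windows were pooled over contigs, so this also depends on which contigs held the summits. Within GL000225.1 the differences were 17.7, 13.6 and 12.7 points, within GL000219.1 5.93, 8.93 and 6.29, and within GL000224.1 3.90, 7.96 and 4.51. Within GL000226.1 they were −0.218 and −0.0518 in replicates 2 and 3. On the ribosomal contig the differences were 3.17, 1.30 and −3.51 points, with a mean of 0.320 ± 3.45 (SD, n = 3, exact sign-flip permutation test, two-sided p = 1). Without that contig the mean difference was 9.86 ± 2.41 points.

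The transcribed unit is the GC-rich part of the ribosomal contig, with a mean of 72.5% over its windows. Both summits in it lay in windows of 53.0% and 55.0%, which overlap and represent a single site. In the spacer between the copies, summits had 56.3%, 52.7% and 49.0%, against 51.6% over its windows. Replicates 1 and 2 lay above that mean and replicate 3 below it.

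**Figure D4:**
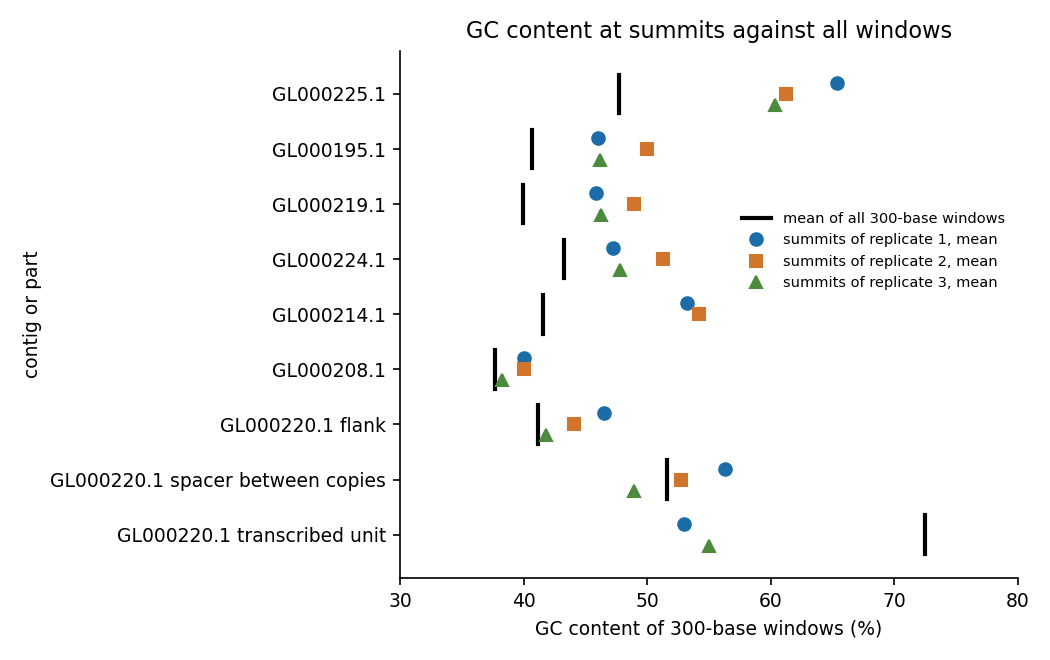
Mean GC content (%) of 300-base windows centred on summits of replicates 1 to 3 (circles, squares and triangles) and of all windows (black lines), on 6 other contigs with sequence and on 3 parts of GL000220.1. Summits lie right of the line on GL000225.1, at 60.4% to 65.3% against 47.7%, and left of it in the transcribed unit.

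GL000225.1 had GC-rich summits. They had a GC content of 65.3%, 61.2% and 60.4%, against 47.7% over its windows. A G-quadruplex motif, a sequence able to fold into a 4-stranded structure, was searched on both strands as 4 runs of at least 3 G with 1 to 7 bases between runs. It was found at 12 of 27, 9 of 19 and 2 of 16 summits, against 5.50% of windows, so replicate 3 had a much lower share than the others. Its 31-base words were unique in the GRCh38 primary sequence for 90.1%, 84.2% and 82.5% of positions at summits and for 51.0% over all windows. Reads were mapped onto hg19, and copies of the words in hg19 were not counted.

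Over all 9 contigs the motif was at 18 of 106, 16 of 75 and 7 of 91 summits in replicates 1, 2 and 3, against 4.01% of windows. Of the 41 summits with the motif, 23 were on GL000225.1. On the ribosomal contig it was at 8 of 83, or 9.64%, against 12.0%, but the parts of the contig differed. In the upstream spacer all 3 summits, which form a single group, had the motif, against 20.5% of windows. In the transcribed unit 41.8% of windows held it while neither summit window did, and those summits also form a single group. In the flank it was at 1 of 43 summits, against 2.86% of windows. In the spacer between the copies it was at 4 of 35, or 11.4%, against 14.2%. Of the 31-base words of the ribosomal contig, 6.90% were unique in GRCh38, against 0.427% to 50.8% on the other contigs with sequence. These word counts, too, are for GRCh38 and not for hg19. The median number of copies of the words at its summits was 5, 5 and 6 in replicates 1, 2 and 3, against 7 over all its windows. By part this gap was absent in the flank, at 6 for summits and windows in every replicate. It was also absent in the spacer between the copies, at 5 for both. In the transcribed unit the median was 5 at the summits of replicates 1 and 3, against 8 over its windows.

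The EPIC2 lists of diffuse regions, made from the same libraries, held 124492, 44482 and 78820 regions and 0 on contigs in every replicate. The study kept calls common to both callers that also recurred across its wild-type replicates, and a contig summit had no EPIC2 region to overlap. Whether EPIC2 was run over the contigs was not stated in the paper's methods. The 0 therefore cannot show that these sites failed that caller.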

How the data were processed

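Short nascent strands of untreated HCT116 cells were sequenced in 3 replicates. Per the paper's methods and the submitters' processing notes, the authors mapped the reads onto hg19 using Bowtie2 (version 2.3.4.2), removed duplicates with Picard (version 2.18.17), and called each replicate separately with MACS2 (version 2.1.0.20151222) at q = 0.1 and with EPIC2. A control library and the handling of reads with several best positions were not given in the sources used here. In the deposited MACS2 lists each row is a summit of a single base with a score, taken here as −log10 of a q-value because none is under 1.00, and peak extents were not used here. The score of the deposited EPIC2 lists was not used, and their regions were only counted by sequence name. All columns used belong to a labelled sample.

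Summits were taken as 1-based positions. The members and lists were chosen with earlier results of these data known. Named contigs were the 10 with the most summits among those called in all 3 replicates, and those with the highest and lowest share. Named sites were groups of summits joined within 100 bases that held all 3 replicates (5 on the ribosomal contig and, elsewhere, the 5 with the highest mean percentile of score), and the highest summit of each replicate. The sites at the edge of the second copy, and the figures on 31-base words, were chosen after values were seen.

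Sequence and length came from GRCh38 only for the 9 of 30 contigs with the same accession and version. Gene positions on GL000220.1 came from RefSeq, whose table does not name the contig. The 18S gene at those positions was 99.9% identical over 1869 bases to the copy on an assembled chromosome. For densities, each chromosome was counted up to its last summit in any replicate, gaps included. Windows were 300 bases in steps of 100. Percent GC, the motif and 31-base word copies over the GRCh38 primary sequences were computed in Python 3.11.15 with numpy 2.4.6 and pandas 2.3.3. The repeat was found by shared words of 25 bases. The matching and the repeat search were tested on simulated data. The sequences of some named sites are not reported here.

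Tests were exact two-sided sign-flip permutation tests over replicates, whose smallest p is 0.25 for 3 replicates. When 3 replicates share a sign, p is 0.25 whatever their spread, so it then reports only that their signs agree. The labels call the samples replicates of a single group, and differences between them may be technical. A log2 ratio of densities in the unit and the rest was planned but cannot be formed with 0 summits in replicate 2, so the difference in summits per kb was tested and the ratio of means was given.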

Additional observations from a re-analysis of the deposited data

How the results depend on the processing

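Alternatives were run for 8 results, 4 of them tested: the contig to chromosome score, the density and the score of the unit against the rest of its contig, and GC content over the contigs with sequence. The direction of these 4 held under each alternative run. Sizes moved: the log2 score difference of the unit, 6.84, was 3.51 against the spacer between the copies alone, and the GC difference, 8.05 points, was 5.24 in windows of 1000 bases. The tests of the spacer against the flank were not rerun under alternatives. The p-values of designs this small pass no threshold under any setting. Agreement depended on the matching distance: on contigs it was 20.6% within 50 bases and 41.1% within 250 bases, and on the ribosomal contig 19.6% and 44.2%. Leaving out 1 replicate gave 23.6% to 35.2% on contigs and 26.7% to 41.7% on the ribosomal contig, in each case highest without replicate 3. Contigs were above chromosomes in every directed pair under each distance and the stricter q-value of 0.01. The density of the unit relative to the rest was 0.210 to 0.383 when 1 replicate was left out, 0.130 with the second copy counted as unit, 0.131 against the spacer between the copies alone, and 0.254 with 1 kb upstream added to the unit. Restricting the list to the highest summit of each peak was not run, since 0 summit names mark several summits of a peak. No paired analysis was possible because there was 1 group only. Read depth is unknown, which limits what the absence of a summit can show.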

Other observations

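GL000226.1, chosen after its values were seen, is 15008 bases long. At a spacing of 342 bases, 68.5% of its bases were equal, the highest such share at the best spacing among the 9 contigs with sequence. It held 0, 2 and 2 summits in replicates 1, 2 and 3, with a median of 1925 copies of the 31-base words at its summits in the GRCh38 primary sequences. Over all its windows the median was 1998 copies. The GC content at its summits, 38.9%, was close to that of its windows, 39.1%.

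GL000214.1, also chosen after its values were seen, held 4, 4 and 0 summits, with a highest score of 95.7. Its summit windows had a GC content of 53.2% and 54.2% in replicates 1 and 2, against 41.5% over its windows.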
